A study of Mus musculus with 6 samples.

Results

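The nuclear genes for the subunits of the mitochondrial respiratory chain and of ATP synthase were followed in mouse embryonic fibroblasts, primary connective tissue cells grown from embryos at E15. Members were chosen by gene name on a 2-colour Agilent whole-genome array. A probe was a member when its gene name began with Nduf, Uqcr or Atp5, or was Sdha, Sdhb, Sdhc, Sdhd, Cyc1, Cycs or a name from Cox4 to Cox8 with a letter after it. This gave 109 of the 41174 probes that were not array controls, and 76 of the 29742 gene names. Complex I held 43 probes for 30 genes, complex II 5 probes for 4 genes, complex III 10 probes for 7 genes, complex IV 21 probes for 17 genes and ATP synthase (complex V) 24 probes for 15 genes. Cytochrome c (Cycs) had 3 probes. The remaining 3 probes belonged to Ndufaf1, an assembly factor of complex I, and to Atp5s, which shares its name with ATP synthase. For the 26 genes with several probes the brightest one stands for the gene unless another is named.

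The study asked how cells that lack part of the Wrn helicase, the mouse counterpart of the Werner syndrome protein, answer hydrogen peroxide. Wild type cells and Wrn mutant cells, called WS in the labels, were exposed to 0.5 mM H2O2 for 1 hour and harvested after 24 hours in fresh medium. Mutant cells came from mice with a stretch of the helicase domain removed from both Wrn alleles, on a mixed genetic background, and the rest of the gene is kept. For the H2O2 response, 2 arrays of wild type cells and 2 arrays of mutant cells each carried treated RNA in Cy5 and untreated RNA of the same genotype in Cy3. A further 2 arrays, numbered 3 and 4, set untreated mutant against untreated wild type RNA directly. Labels call the arrays of a pair biological replicates, and no array had its dyes exchanged. In such bulk RNA a lower value cannot be told apart from fewer cells that express the gene.

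Electrons from NADH enter the respiratory chain at complex I and those from succinate at complex II. They pass through complex III, cytochrome c and complex IV to oxygen, while complexes I, III and IV move protons out of the mitochondrial matrix. ATP synthase makes ATP as the protons return. Most subunits come from nuclear genes, but the catalytic core of complexes I, III and IV and parts of ATP synthase come from mitochondrial DNA, and NRF1, the ETS factor GABP and YY1 are known regulators of many of the nuclear genes. The chain is also a known source of reactive oxygen species.

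All 9 fibroblast markers were measured on the arrays, and each was well above background in Cy3 on all 6. Skeletal muscle markers passed that test for 5 of 6 genes, macrophage markers for 4 of 5 and endothelial markers for 1 of 4. The 1 epithelial marker on the array did not pass. On each array 75.8% to 90% of all spots were well above background in Cy3, so passing does not show which cell types were present. For the mutated gene, 3 Wrn probes had direct-array log2 ratios from -0.01 to 0.38 with no call, and the fourth, whose Cy5 signal was not well above background on any array, was at -0.91 (adjusted p = 0.0115). Where these probes lie relative to the deletion was not settled, so they check no label. The scanner software marks spots of uneven or outlying signal, and those values were left out. Marks fell on 0.4% to 22.6% of all spots on an array and on 4.59% to 32.1% of the member probes, with 18 and 35 member probes marked on the wild type arrays, 5 and 32 on the mutant arrays and 16 and 10 on the direct arrays. No member was saturated, and 53 of the 109 carried no mark on any array. Cy3 stood well above background on all 6 arrays for 102 probes and Cy5 for 90, while for 4 probes Cy5 did so on no array.

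In wild type cells no respiratory chain probe changed after H2O2 by limma at an adjusted p under 0.05. Of all probes tested, 104 of 40303 did, which is 0.258%, and 96 members were tested. At an unadjusted p under 0.05 there were 19 members, or 19.8% against 20% of all probes. Over the 96 members tested, the median log2 ratio was 0.10, against -0.01 for all probes. Of these 96, 59 (61.5%) were above 0 against 48.6% of all probes. By complex, the median was 0.20 for complex I, -0.33 for complex II, -0.14 for complex III, 0.12 for complex IV and -0.05 for ATP synthase. Each of these medians was above 0, from 0.24 to 0.74, when arrays were centred on their median with no loess curve. Without direct array 3, and equally without direct array 4, 19 members were called, 13 higher and 6 lower, where 22.8% of all probes were. Fibroblast markers had a median of -1.04 here, from -2.37 to 0.91 over 5 tested, and skeletal muscle markers one of -0.63 over 6. None was called, and their part in the members' values was not tested.

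Cytochrome c, the small carrier between complexes III and IV that also starts apoptosis when it leaves mitochondria, had its 3 probes above 0 on both wild type arrays. Its brightest probe read 0.66 and 0.35, the next 0.68 and 0.50, and the dimmest 0.83 and 0.60. The fitted values of Cycs were 0.51 ± 0.17 (SE, n = 2 arrays, adjusted p = 0.188), 0.59 ± 0.26 (adjusted p = 0.275) and 0.71 ± 0.17 (adjusted p = 0.0934). None passed the test. The 3 probes gave one sign and sizes within their errors.

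Among representative probes with both wild type values of one sign, Cox6a2, Atp5s and Cox5a were highest. Cox6a2, the isoform of a complex IV subunit typical of heart and skeletal muscle, was at 1.21 and 0.70, and its fitted value was 0.95 ± 0.19 (SE, adjusted p = 0.0676). It was a dim probe, with Cy5 well above background on 4 of 6 arrays. Cox5a, a complex IV subunit of all tissues, read 0.77 and 0.70 and was fitted at 0.73 ± 0.18 (adjusted p = 0.0893), whereas the dimmer Cox5a probe was at 0.13. Atp5s was at 0.84 and 0.67 with one probe and at 0.74 and 0.55 with the other. Ndufv2, Cox6b and Atp5k were lowest. Ndufv2, an iron-sulphur subunit in the NADH-oxidising arm of complex I, read -0.76 and -0.70, and its fitted value was -0.73 ± 0.17 (adjusted p = 0.0859). The other Ndufv2 probe went the other way, at 1.25 and 0.99 (1.12 ± 0.21, adjusted p = 0.0589), but its Cy5 signal was well above background on 2 of 6 arrays only. With marked spots kept on all arrays this dim Ndufv2 probe was the one member called (adjusted p = 0.0465). Cox6b, a complex IV subunit on the side of cytochrome c, was at -0.54 and -0.72. Atp5k, subunit e of the membrane part of ATP synthase, was at -0.54 and -0.68 with a fitted value of -0.61 ± 0.16 (adjusted p = 0.0965).

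**Figure D1:**
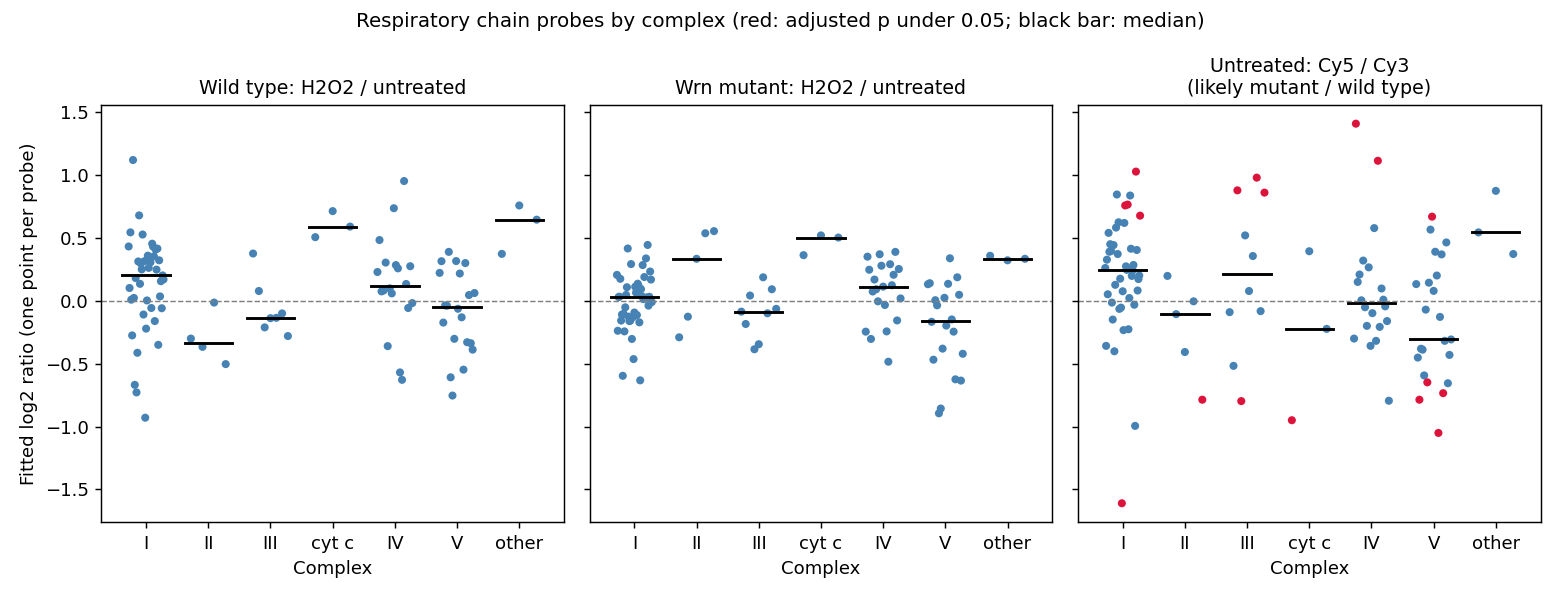
Fitted log2 ratios of the member probes by complex, one point a probe, for the wild type H2O2 response (96 probes), the mutant H2O2 response (104 probes) and the direct arrays (107 probes). Black bars are medians and red points are the 18 probes called at an adjusted p under 0.05, which lie in the direct comparison only.

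In Wrn mutant cells 104 members were tested and none was called in the H2O2 response, as was none of all 41052 probes by limma (0%). At an unadjusted p under 0.05 there were 8 members, 7.69% against 12% of all probes. The median was 0.03, against 0.01 for all probes, and 55.8% of members were above 0 against 50.9%. Values of the members spread less than in wild type cells, with an SD over probes of 0.30 against 0.39, and so did those of all probes, at 0.37 against 0.50. Complex I had a median of 0.03, complex II of 0.33, complex III of -0.09, complex IV of 0.11 and ATP synthase of -0.16. With no loess curve these medians were all above 0, from 0.66 to 1.25, and 3 members were then called higher (Ndufa7, the dimmer Sdha probe and the dimmest Cycs probe), where 4.57% of all probes were called. Without direct array 3, or without direct array 4, 7 probes were called where 9.91% of all were. These were Atp5k, Atp5d, Ndufb7 and Cox6b, all lower, and the dimmer Sdha probe with 2 Cycs probes, all higher.

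Cycs was again above 0 with all 3 probes, at fitted values of 0.36 ± 0.25 (SE), 0.50 ± 0.26 and 0.52 ± 0.17 (adjusted p = 0.61, 0.5 and 0.337). Its brightest probe rested on mutant array 1, at 0.36, because the spot on array 2 was marked, where it read -0.03. The 2 other probes were at 0.44 and 0.44 on array 1 and at 0.56 and 0.60 on array 2. Ndufa7 and Ndufc2, accessory subunits of complex I, and Ndufaf1 were the highest representative probes. Ndufa7 read 0.41 and 0.47, Ndufc2 0.40 and 0.43, and Ndufaf1 0.54 and 0.18. Ndufb7, Atp5d and Atp5k were lowest. Atp5k was at -0.83 and -0.96, with a fitted value of -0.90 ± 0.16 (adjusted p = 0.208), and Atp5d, a subunit of the central stalk of ATP synthase, was at -0.86 and -0.85 (fitted -0.86 ± 0.18, adjusted p = 0.253). Ndufb7, an accessory complex I subunit, was at -0.51 and -0.76. None of these 6 genes passed the test. Of these, Atp5k and Atp5d also had negative wild type values, though one of the 2 Atp5d spots was marked there. Ndufb7 was negative on both wild type arrays too, at -0.61 and -0.34, but both spots were marked.

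The genotypes were compared in one model, as the mutant response minus the wild type response. No member among 94 tested was called, and none of all 40267 probes was (0%). Unadjusted p-values were under 0.05 for 6 members, 6.38% against 5.94% of all probes. The median difference was -0.10, against 0.01 for all probes, and 35.1% of the members were above 0, against 51.4% of all probes. This median turned to 0.19 when no loess curve was fitted. Without direct array 3, or without direct array 4, the dim probe of Ndufv2 was called, where 1.27% of all probes were.

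Sdha, the flavoprotein of succinate dehydrogenase that oxidises succinate, had the highest difference of the representative probes. On the wild type arrays it read -0.49 (marked) and -0.50, and on the mutant arrays 0.55 and 0.17 (marked). The difference of 1.06 ± 0.38 (SE, adjusted p = 0.834) therefore rested on 1 array a genotype. The second Sdha probe carried no mark and read -0.01 and -0.02 in wild type cells but 0.53 and 0.54 in mutant cells, a difference of 0.55 ± 0.23 (adjusted p = 0.841). Both probes put the mutant cells higher and neither difference passed the test. Cox6b2, a testis isoform, was at -0.30 and -0.42 in wild type and at 0.19 and 0.15 in mutant cells, with Cy5 well above background on 1 array. Ndufv2 differed by 0.48 ± 0.24 (adjusted p = 0.853) with its bright probe and by -1.28 ± 0.29 (adjusted p = 0.644) with its dim one. At the other end, Ndufb9, an accessory subunit of complex I, read 0.44 and 0.64 in wild type cells but 0.06 and -0.01 in mutant cells. Cox6a2 differed by -0.66 ± 0.27 (adjusted p = 0.839) and Cox5b, a zinc-binding subunit of complex IV, by -0.47 ± 0.29.

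Across the 94 members with both values, the wild type and mutant responses correlated with Pearson's r = 0.591, and over all 40267 probes with r = 0.637. The points are probes, several to a gene in places, and they share the dye orientation, so that r describes these arrays only. Between the 2 arrays of a comparison, r over the members was 0.867 for wild type, 0.711 for mutant and 0.612 for the direct arrays. The scatter of both responses shows cytochrome c in the upper right and Atp5k with Atp5d in the lower left.

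**Figure D2:**
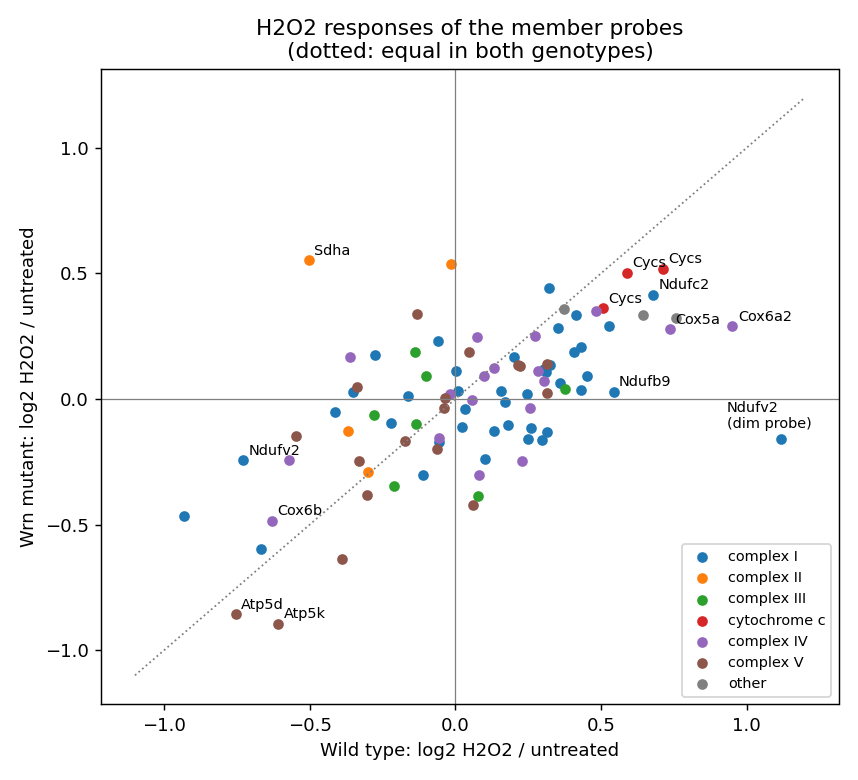
Fitted log2 ratio of H2O2-treated over untreated cells for 94 member probes, wild type on the horizontal and Wrn mutant on the vertical axis, coloured by complex. The 3 Cycs probes lie above 0 on both axes, Atp5k and Atp5d below 0 on both, and both Sdha probes (orange, upper left) above the dotted line of equal values.

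Untreated mutant and wild type cells were set against each other on the direct arrays, and here part of the chain was called. The direction needs a caution. Values are given as Cy5 over Cy3 and read as mutant over wild type, which is likely because the study's own list of this comparison is written that way and because untreated cells of the treatment arrays gave the same sign for 91.9% of 7887 called probes (r = 0.866). The labels of these 2 arrays put wild type RNA in Cy5, and under that reading every sign of this comparison turns. Of 107 members tested, 18 were called, 10 higher and 8 lower. This is 16.8% of the members against 19.6% of all probes, with 9.83% of all probes higher and 9.78% lower, so the count lies near the background. At an unadjusted p under 0.05 the share was 33.6% against 35.9%. The median was 0.10, against 0.00 for all probes, and 57.9% of members were above 0 against 49.9%. With no loess curve the calls were 11 higher and none lower, where 10.6% of all probes were called, and with the software's own log ratio they were 7 higher and 2 lower, where 8.16% were. The number of calls was 8 without either mutant treatment array (9.01% of all probes), 10 without either wild type one (12.7%), 27 without direct array 3 (43.2%) and 31 without direct array 4 (28.9%), and the median was 0.04 without direct array 3 and 0.19 without direct array 4. Every array enters because all share one estimate of the spread. On the direct arrays alone Cox7a1 was the one call (adjusted p = 0.037), where 5% of all probes were called.

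Fibroblast markers moved as well on the direct arrays, with 4 of 8 tested (Pdgfra, Pdgfrb, Col3a1 and Col1a1) called higher and log2 ratios from 0.02 to 2.18 over the list. Of all probes, 9.83% were called higher on these arrays. No macrophage, endothelial or epithelial marker was called. The part of these differences in the members' values was not tested.

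Complex I had 4 probes higher and 1 lower, and its median was 0.25. The 4 higher ones were accessory subunits. Ndufa7 read 1.21 on direct array 3 and 0.84 on array 4, with a fitted log2 ratio of 1.03 ± 0.17 (SE, adjusted p = 0.00873), and its second probe was at 0.44 on both. Ndufb10 was at 0.57 and 0.95 (adjusted p = 0.0333), and Ndufa3 at 0.86 and 0.49 (adjusted p = 0.0309). Ndufa1, whose product is needed to assemble the membrane arm, was called with one of its 2 probes, at 0.94 and 0.57 (0.76 ± 0.17, adjusted p = 0.0243). The slightly brighter Ndufa1 probe was at 0.84 on array 3 and was marked on array 4.

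In complex III and cytochrome c the calls went both ways. Uqcrh, the hinge protein between cytochrome c1 and cytochrome c, was at 1.12 and 0.83 with one probe and at 0.96 and 0.76 with the other. Their fitted values were 0.98 ± 0.17 (SE, adjusted p = 0.0146) and 0.86 ± 0.15 (adjusted p = 0.0117). Uqcrc2, a core protein on the matrix side, read 0.89 and 0.86, 0.88 ± 0.15 (adjusted p = 0.01). Cyc1, which is cytochrome c1 itself, was lower at -1.03 and -0.57 (fitted -0.80 ± 0.18, adjusted p = 0.0334). The brightest Cycs probe was lower too, at -0.86 and -1.04 (fitted -0.95 ± 0.17, adjusted p = 0.017). The other Cycs probes did not share this, since on array 3 they read 0.34 and 0.39, and on array 4 -0.79 and -1.13 (marked). Cycs thus had 3 probes of one sign in the H2O2 responses and of 2 signs here.

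Sdha was lower in complex II with its brighter probe, at -0.97 and -0.60 (fitted -0.79 ± 0.19, adjusted p = 0.0484), while the other Sdha probe read 0.19 and -0.20. The 3 other genes of complex II were not called. Sdhb was at -0.47 and 0.25, Sdhc at 0.20 and Sdhd at -0.41, the last 2 on array 4 alone.

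**Figure D3:**
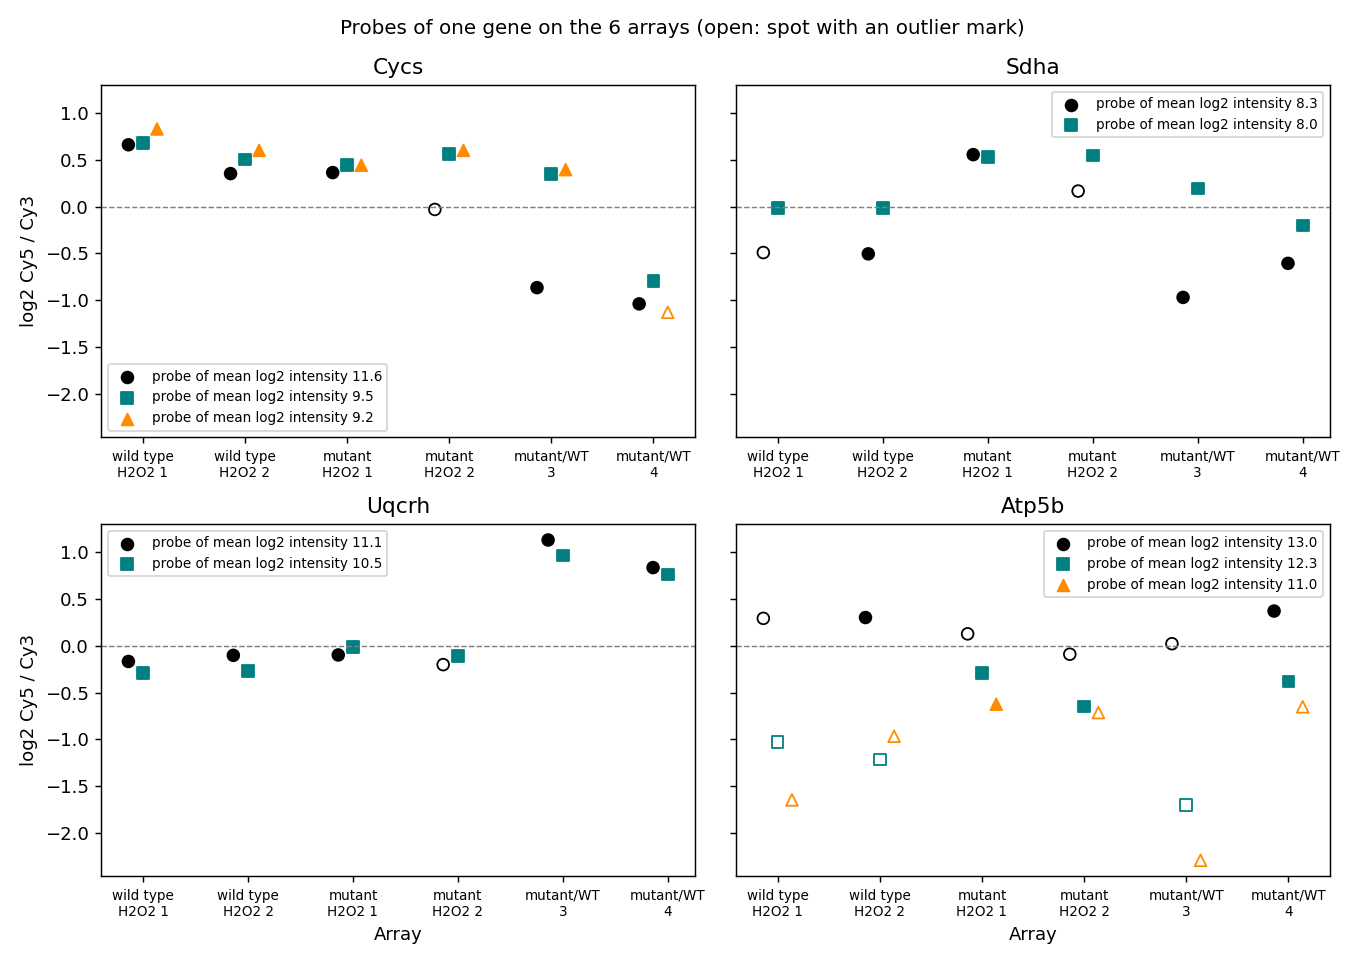
log2 Cy5 over Cy3 of each probe of Cycs, Sdha, Uqcrh and Atp5b on the 6 arrays, with open symbols for spots that carry an outlier mark. The 2 Uqcrh probes stay together throughout, the Cycs probes part on direct array 3, and the dimmer Atp5b probes lie below the brightest one on all 6 arrays.

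Complex IV gave both of its calls to muscle isoforms. Cox7a1 read 1.30 and 1.52 on the direct arrays, 1.41 ± 0.17 (SE, adjusted p = 0.00362), which is 2.65-fold and the highest of all members. Cox6a2 read 1.01 and 1.21, 1.11 ± 0.19 (adjusted p = 0.0109). Their counterparts for other tissues were not called. Cox7a2 was at 0.24 and -0.22, and Cox6a1 at -0.20 on array 3 with a marked -0.72 on array 4. Both muscle isoforms were dim probes, and the Cy5 signal of Cox6a2 was not well above background on direct array 4, so its size there is not exact. Of the 6 skeletal muscle markers none was called, and their log2 ratios ran from -0.73 to 0.08 with a median of -0.10. Myod1 was at -0.66 and Ckm at 0.08 there.

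ATP synthase had 1 probe higher and 4 lower, with a median of -0.31 that became 0.37 with no loess curve. Atp5o, the subunit that ties the catalytic head to the peripheral stalk, was at 0.77 and 0.57 (0.67 ± 0.15, adjusted p = 0.0249). Among the lower ones, Atp5g1, one of 3 genes for the c-ring, was at -0.90 and -0.67 (fitted -0.79 ± 0.15, SE, adjusted p = 0.0161). Atp5k was at -0.54 and -0.76 (fitted -0.65 ± 0.16, adjusted p = 0.0302). Atp5f1, subunit b of the peripheral stalk, was called with its dimmer probe at -1.19 and -0.92 (fitted -1.05 ± 0.20, adjusted p = 0.0197), and its brighter one was at -0.45. Atp5j2, subunit f, was called with its dimmer probe at -0.89 and -0.58, but its Cy5 signal was well above background on neither direct array, so these are no exact sizes, and the brighter one was at -0.39. All 8 lower calls of the chain were lost with no loess curve, where Atp5g1 was at -0.31, Atp5k at -0.04, Sdha at -0.46, Cyc1 at -0.34 and Cycs at -0.35. The 10 higher ones, Cox7a1 to Atp5o, were all called there too, with Atp5e, the epsilon subunit, as an eleventh at 1.19.

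In Cy3, untreated mutant cells could be compared with untreated wild type cells on the treatment arrays. The dye is then the same on both sides, and the labels settle the direction. Each of these arrays held 1 genotype, however, so array and genotype cannot be told apart in this comparison. Before background subtraction and scaling, the members' median Cy3 signal was 3740.6 and 3744.8 on the wild type arrays. On the mutant arrays it was 1142.9 and 1023.1. No member of 94 tested was called, against 1.27% of all probes, and 7 members had an unadjusted p under 0.05 by limma, 7.45% against 12.8%. The median was 0.01, against 0.07 for all probes, and 51.1% of members were above 0 against 55.2%. Of the 18 probes called on the direct arrays, 16 (88.9%) had the same sign in Cy3, against 91.9% of 7887 called probes of the whole array. The direction of the direct arrays was read partly from this agreement, so the shared sign is no separate support for the members. Cox7a1 was at 1.02 ± 0.36 (SE, adjusted p = 0.22) in Cy3, Uqcrh at 1.12 and 0.65 with its 2 probes, Atp5k at -0.96 and Cycs at -0.78. The brighter Uqcrh probe and the Cycs probe were marked on mutant array 2. With marked spots kept they were at 0.77 and -1.01. Ndufa3, at -0.04, and the dimmer Atp5j2 probe, at 0.39, did not have the sign of the direct arrays. Of all representative probes, Cox7a2l, an assembly factor of chain supercomplexes, was highest at 1.27, followed by Uqcrh and Cox7a1. The Cox7a2l value rested on 1 array a genotype, since its spots on the other treatment arrays were marked. Among the lowest were Ndufs3 at -1.24 and Atp5j2 at -1.003 with its bright probe. The Ndufs3 spot of mutant array 2 was marked. Log2 Cy3 levels of Ndufs3 were 10.09 and 12.51 on the wild type arrays and 10.06 on mutant array 1, so its value rested on wild type array 2. Without wild type array 1, 8 probes were called in Cy3, where 15.4% of all were, and the median was 0.36. Cox7a1, Uqcrh and Atp5k were among them, each with the sign of the direct arrays. Without wild type array 2 none was called, where 1.95% of all probes were, and the median turned to -0.15, with 28 probes above 0 and 63 below.

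**Figure D4:**
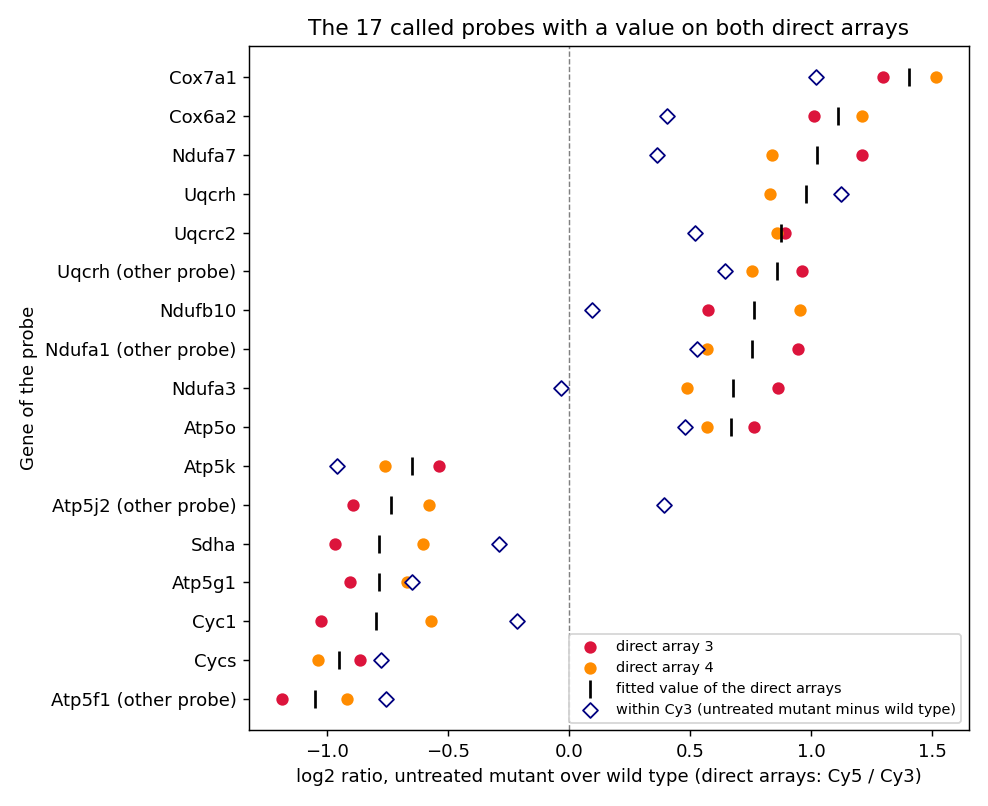
The 17 called member probes with a value on both direct arrays, with their log2 Cy5 over Cy3 (likely mutant over wild type) on arrays 3 and 4, the fitted value, and the difference of untreated mutant and wild type cells within Cy3 of the treatment arrays. The open diamonds lie on the same side of 0 as the direct arrays for all but Ndufa3 and the dimmer Atp5j2 probe.

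Promoters of 4 called members are given to show the sequence letters that regulators of this gene set are known for, Uqcrh and Atp5o among the higher and Atp5k and Sdha among the lower ones. RefSeq promoter sequences, from 250 bases before to 50 bases after the gene start in GRCm38.p6, were at hand for 62 of the 76 genes. They were searched on both strands for GCGCA and GCGC with any base between them (NRF1), CCGGAAG (ETS factors such as GABP) and AANATGGCG (YY1), where the end of the ETS letters can serve as the start of the YY1 letters. NRF1 letters occurred for 15 of the 62 genes (24.2%, against 5.19% of 27025 genes), ETS letters for 16 (25.8% against 9.93%) and YY1 letters for 8 (12.9% against 2.76%). At least 1 of the 3 motifs was held by 34 of the 62 genes (54.8%, against 15.9% of 27025 genes). By complex, these were 11 of 14 genes of ATP synthase, 13 of 26 of complex I and 3 of 12 of complex IV. Complex II had 3 of 3 and complex III 3 of 4, while the cytochrome c gene held none. Of the called genes with a promoter sequence, 3 of 7 higher and 3 of 6 lower ones held at least 1, so both directions hold them. Capitals mark the matches.
Uqcrh, chr4:116075021-116075320, minus strand: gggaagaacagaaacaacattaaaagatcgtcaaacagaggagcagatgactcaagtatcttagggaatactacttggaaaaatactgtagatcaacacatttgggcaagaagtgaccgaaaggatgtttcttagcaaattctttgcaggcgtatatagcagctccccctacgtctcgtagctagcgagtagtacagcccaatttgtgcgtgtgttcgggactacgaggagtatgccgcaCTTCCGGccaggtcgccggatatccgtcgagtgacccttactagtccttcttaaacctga
Atp5o, chr16:91931581-91931880, minus strand: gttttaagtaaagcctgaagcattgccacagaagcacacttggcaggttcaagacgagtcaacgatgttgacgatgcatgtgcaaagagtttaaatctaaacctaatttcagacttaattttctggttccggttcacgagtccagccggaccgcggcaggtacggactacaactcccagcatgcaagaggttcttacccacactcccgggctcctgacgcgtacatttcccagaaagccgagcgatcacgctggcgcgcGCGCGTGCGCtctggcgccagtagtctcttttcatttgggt
Atp5k, chr5:108434350-108434649, minus strand: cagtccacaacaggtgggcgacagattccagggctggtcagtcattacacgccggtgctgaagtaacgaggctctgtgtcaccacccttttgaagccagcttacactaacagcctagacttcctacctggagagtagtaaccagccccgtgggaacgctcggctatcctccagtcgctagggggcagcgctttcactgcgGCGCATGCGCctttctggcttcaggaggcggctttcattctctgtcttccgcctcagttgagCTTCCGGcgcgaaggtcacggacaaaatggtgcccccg
Sdha, chr13:74350191-74350490, minus strand: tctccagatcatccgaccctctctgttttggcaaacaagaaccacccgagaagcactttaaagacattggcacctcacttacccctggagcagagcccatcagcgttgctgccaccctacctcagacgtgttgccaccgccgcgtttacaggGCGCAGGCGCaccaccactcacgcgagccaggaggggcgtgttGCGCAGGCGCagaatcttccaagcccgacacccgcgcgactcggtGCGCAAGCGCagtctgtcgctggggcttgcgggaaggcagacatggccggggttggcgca

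The regulators themselves were measured as well. Nrf1 was lower on the direct arrays, at -2.02 and -0.73 (fitted -1.38 ± 0.38, SE, adjusted p = 0.0452), and Esrra, a nuclear receptor that drives genes of oxidative metabolism, was higher at 1.06 and 0.56 (0.81 ± 0.20, adjusted p = 0.0411). Gabpa, at 0.97 and -0.16, and the coactivator Ppargc1a, at 0.30 and -0.72, were not called. Tfam, the packaging and transcription factor of mitochondrial DNA, had a direct value on array 4 alone, at 0.39. Of the 15 biogenesis genes on the array these were the 2 calls on the direct arrays, where 19.6% of all probes were called. Neither H2O2 response had any call, where 0.258% (wild type) and 0% (mutant) of all probes were called.

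Other genes that serve the chain were counted by list. The counts of calls are those of the direct arrays, where 19.6% of all probes were called, 9.83% higher and 9.78% lower. Of 10 assembly factors on the array, 1 was called, Lrpprc, which binds mitochondrial messenger RNA and was higher at 0.59 ± 0.15 (SE, adjusted p = 0.0351). In the citric acid cycle and pyruvate dehydrogenase list, 2 of 19 genes were higher and 3 lower. Pdk4, a kinase that switches pyruvate dehydrogenase off, was at 3.37 on direct array 3 (adjusted p = 0.00285, array 4 marked) and was called in Cy3 too, at 2.90 ± 0.45 (adjusted p = 0.00154). Idh3g, a subunit of isocitrate dehydrogenase, was at 1.196 on array 3 alone, while Idh3a of the same enzyme was lower at -1.09 and -0.91. Ogdh and Pdk2 were the other lower genes, at fitted values of -1.97 and -1.51. Among 7 membrane carriers, Ucp2 was higher at 1.84 and 1.43, and Slc25a5, an ADP/ATP carrier, lower at -0.78 and -0.56. No list had a call in either H2O2 response. Their wild type medians were 0.32 for assembly, 0.15 for biogenesis, 0.33 for the citric acid cycle and 0.25 for the carriers.

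The remaining core subunits stayed uncalled in all comparisons. Ndufs1, the large iron-sulphur subunit of complex I, was at 0.53 (wild type array 1), 0.42 and 0.16 (mutant) and 0.24 and -0.37 (direct). Ndufv1, which binds NADH, read 0.37 and 0.23 in wild type and -0.08 and -0.24 in mutant cells. Uqcrfs1, the Rieske iron-sulphur protein, carried marks on 5 of 6 arrays, with a single unmarked value of 0.08 on direct array 4. Uqcrc1 was marked on both wild type arrays, where its bright probe read 0.23 and 0.47, and stood at 0.04 and -0.21 in mutant cells. Cox4i1 was at 0.04 and 0.12 in wild type, -0.27 and -0.34 in mutant cells and 0.19 and 0.23 on the direct arrays. Cox5b read 0.23 on wild type array 1, -0.12 and -0.37 in mutant cells and -0.26 and -0.34 on the direct arrays.

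The catalytic head of ATP synthase was poorly covered. Atp5a1, the alpha subunit, had marks on 5 of 6 arrays with both probes, and its unmarked values on direct array 4 were 0.46 and 0.39. Atp5b, the beta subunit, had 3 probes that disagreed. The brightest read 0.30 on wild type array 2 and 0.37 on direct array 4, with marks elsewhere. The middle one was marked on both wild type arrays, at -1.03 and -1.21, and read -0.29 and -0.65 in mutant cells. The third was at -0.62 on mutant array 1 and was marked on the other 5, with -1.64 and -0.97 in wild type cells and -2.29 on direct array 3. With marked values included, the Atp5b probes thus had both signs in wild type cells, on mutant array 1 and on both direct arrays. On direct array 4 the brightest read 0.37 and the middle one -0.38, both unmarked. On mutant array 2 all 3 lay below 0.

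Several isoforms of other tissues lay near background in Cy5, though not in Cy3. Cy3 was well above background on 5 of 6 arrays for Cox4i2 and on all 6 for Cox6b2, Cox8b and Cox8c. Cox4i2, Cox6b2, Cox8b and Cox8c, the isoforms of other tissues, had Cy5 well above background on 1, 1, 3 and 1 of 6 arrays, while their counterparts Cox4i1, Cox6b and Cox8a had it on all 6. Cox8a, the general isoform, was at 0.28 and 0.27 in wild type cells and -0.09 and -0.24 on the direct arrays. Ndufa4, now counted to complex IV, was at 0.28 and 0.12 in wild type cells and at 0.60 and -0.20 on the direct arrays. The c-ring genes of ATP synthase encode the same mature protein. Atp5g2 was at 0.15 and 0.28 in wild type and 0.34 and 0.06 on the direct arrays with its brightest probe, Atp5g3 at 0.39 and -0.07 on the single unmarked arrays, and Atp5g1 was the one called.

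Probes of a gene often disagreed in sign. In the direct comparison 16 of 26 genes with several probes had one sign over their probes, with a median spread of 0.46, and in the wild type response 13 of 22, with a median spread of 0.32. Some members kept one sign on all 6 arrays, marked values kept. Cy5 exceeded Cy3 throughout for 21 of 107 members (19.6%, against 10.7% of all probes), among them Cox7a1, Cox6a2, Ndufa7, Ndufc2 and Atp5o. It lay below Cy3 throughout for 7 (6.54% against 9.91%), among them Atp5k, Cox6b and both Atp5g1 probes. Since dyes were never exchanged, a change in such genes and uneven labelling by the dyes cannot be told apart.

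The subunits encoded by mitochondrial DNA do not meet the name rule, and their 5 probes, taken as all probes whose gene name began with mt-, were looked at after the members' values were known. They read lower in treated wild type cells, by more than any nuclear member. On the 2 wild type arrays mt-Co2, a catalytic core subunit of complex IV, was at -3.33 and -2.003, and mt-Nd4, a proton-pumping subunit of complex I, at -2.67 and -1.60. Cytochrome b of complex III (mt-Cytb) was at -2.40 and -1.74. The 2 probes of mt-Atp6, the proton channel of ATP synthase, were at -3.12 and -1.93 and at -2.97 and -2.14. The fitted values of mt-Atp6 were -2.55 ± 0.24 (SE, adjusted p = 0.0404), the only call of the 5, and -2.53 ± 0.30 (adjusted p = 0.0508). For mt-Co2, mt-Nd4 and mt-Cytb adjusted p was 0.0539, 0.0525 and 0.0521. All 3 were called with marked spots kept, at -2.56, -2.05 and -1.95, where 2.39% of all probes were called. The study's methods say that cytoplasmic RNA was taken, the labels say total RNA, and how much mitochondrial RNA either yields was not tested.

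On the mutant arrays the same 5 probes read between -0.76 and -0.03 where unmarked. The array 2 spots of mt-Cytb and mt-Co2 were marked, so their mutant values and their differences below rest on mutant array 1. With no loess curve the fitted mutant values of all 5 probes turned above 0. They were 0.68 and 0.59 for mt-Atp6, 0.64 for mt-Co2, 1.32 for mt-Cytb and 0.90 for mt-Nd4, with no call. The response of mutant cells minus that of wild type cells was 2.18 ± 0.33 and 2.25 ± 0.42 for mt-Atp6 (SE, adjusted p = 0.47 and 0.558), 2.08 ± 0.48 for mt-Nd4 (adjusted p = 0.643), 1.98 ± 0.44 for mt-Cytb (adjusted p = 0.656) and 1.90 ± 0.60 for mt-Co2 (adjusted p = 0.811). None of these differences was called in the fit of all arrays, although their unadjusted p-values ran from 0.000615 to 0.0244. With the treatment arrays in a fit of their own, adjusted p was 0.00765 and 0.0164 for mt-Atp6, 0.0163 for mt-Nd4, 0.0236 for mt-Cytb and 0.0827 for mt-Co2. In that fit 1.27% of all probes were called. In Cy3, untreated mutant cells read lower than untreated wild type cells. The values were -1.61 ± 0.37 (adjusted p = 0.0322) and -1.53 ± 0.39 (adjusted p = 0.0595) for mt-Atp6, and -1.15, -0.94 and -0.81 for mt-Cytb, mt-Nd4 and mt-Co2. Array and genotype cannot be told apart there, as for the members. The call in Cy3 was lost with marked spots kept (adjusted p = 0.113) and without either mutant array (0.573 and 0.274). On the direct arrays no mt- probe was called. Fitted values there were -0.93 and -0.63 for mt-Atp6 and -0.07 for mt-Co2, each on array 3 alone, -0.70 for mt-Cytb and -0.27 for mt-Nd4. With marked spots kept both mt-Atp6 probes were called lower, at -1.43 (adjusted p = 0.0321) and -1.30 (adjusted p = 0.0464), and so they were in the deposited log2 table. Without direct array 3, mt-Cytb (-1.05, adjusted p = 0.00816) and mt-Nd4 (-0.87, adjusted p = 0.0394) were called lower. With no loess curve the direct values ran from -0.04 to 0.93, 4 of the 5 above 0, with no call. The calls after H2O2 rest on few arrays too. Without either mutant array the call of mt-Atp6 in wild type cells was lost (adjusted p = 0.176). Without wild type array 1 the value of mt-Atp6 was -2.14 and without wild type array 2 -2.97, with no call in either fit, and with no loess curve it was -1.97 (adjusted p = 0.121). These probes were among the brightest, with mean log2 intensities of 11.9 to 13.5, and mt-Cytb was saturated in Cy3 on 2 arrays.

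**Figure D5:**
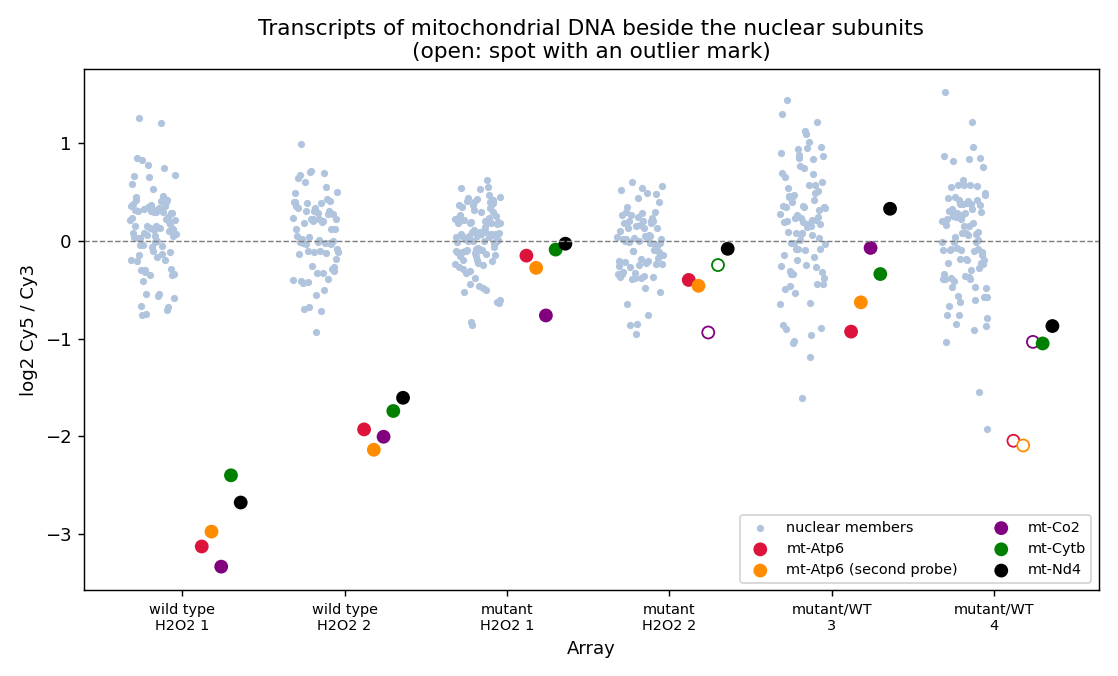
log2 Cy5 over Cy3 on the 6 arrays for the 5 probes of mitochondrial DNA transcripts, with open circles for marked spots, beside the unmarked nuclear members (pale points). On both wild type H2O2 arrays the 5 probes lie between -3.33 and -1.60, below every nuclear member, and on the mutant H2O2 arrays near them.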

How the data were processed

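The authors hybridised RNA to 6 arrays and deposited one scanner table an array, with foreground and background intensity in Cy5 and Cy3, a log10 ratio and spot flags, a score of 0 or 1, made by Agilent's Feature Extraction. A table of log2 ratios of the same arrays, normalized with limma, was deposited by the authors as well. RNA is called total in the labels and cytoplasmic in the study's methods. Each array lay on its own slide, and the direct arrays were extracted by the software in other sessions than the treatment arrays.

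Local background was subtracted, log2 ratios were normalized within each array by loess (span 0.3), control and outlier-marked spots were left out, and spots of a probe were averaged. limma 3.58.1 in R 4.3.3 fitted all 6 arrays with 1 coefficient a comparison (3 residual degrees of freedom, 3.98 from the prior). p-values were two-sided and Benjamini-Hochberg adjusted over all probes with a value. A call means an adjusted p under 0.05. Cy3 values were compared after Aquantile scaling. Errors are standard errors, and precision is limited by 2 arrays a comparison. A fit of a gene with a marked spot rests on the arrays left. The script was tested on simulated data.

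Named are all called members, otherwise the 3 highest and 3 lowest, plus fixed core subunits and isoform sets. For the highest and lowest, 2 values of one sign were required in the wild type, mutant and direct comparisons. No such condition was set for the difference of the responses or within Cy3. Members and lists were chosen with earlier results of these data known. The 76 genes were matched to RefSeq (86 probes by accession, 23 by symbol). Tables of the study's own gene lists were not used for any value. Alternatives were outlier marks kept, normexp background (offset 50), median centring, the software's log ratio, the deposited table, a log2 intensity above 6, own arrays, 1 probe a gene, the study's thresholds (adjusted p under 0.005, 2-fold), leaving out each array, and a replicate block. The values of 1 member are not reported here, though it is counted.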

Additional observations from a re-analysis of the deposited data

How the results depend on the processing

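Counts of called members in the wild type response were 1 with outlier-marked spots kept (2.39% of all probes called), 1 with the deposited log2 table (2.42%), 8 with normexp background (5.56%), 20 with each comparison on its own arrays (25.1%) and 0 to 19 leaving out 1 array (0% to 22.8%). The median was 0.216 with marked spots kept and with the deposited table, 0.555 with median centring, 0.145 above a log2 intensity of 6, 0.174 with 1 probe a gene and 0.085 to 0.149 leaving out 1 array. For the mutant response the count was 3 with median centring (4.57%), 7 on its own arrays (10.7%) and 0 to 7 leaving out 1 array (0% to 9.91%), and the median was 0.866 with median centring. For the direct arrays the count was 28 with marked spots kept (22.4%), 11 with median centring (10.6%), 9 with the software's log ratio (8.16%), 1 on its own arrays (5%), 0 at the study's thresholds (1.83%) and 8 to 31 leaving out 1 array (9.01% to 43.2%), and the median was 0.507 with median centring and 0.04 to 0.192 leaving out 1 array. The difference of the responses had a count of 1 on its own arrays (1.27%) and of 0 to 1 leaving out 1 array (0% to 1.27%), with medians of -0.166 (marked spots kept, and deposited table) and 0.192 (median centring). Within Cy3 the count was 0 to 8 leaving out 1 array (0.507% to 15.4%), and the median ran from -0.154 to 0.36. Slc25a5 on the direct arrays turned to 0.051 with median centring. Of 3403 recomputed values of single genes, 2894 kept their side of the threshold or moved less than 1 SD, 155 lost a call, 135 gained one and 218 moved by more, and 140 uncalled values changed sign. The cause of these shifts was not tested.

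Replicate numbers 1 and 2 of the treatment arrays pair nothing in the labels, and deviations of same-numbered arrays correlated at -0.046 (ratios) and 0.188 (Cy3). With the replicate block, 4 members were called on the direct arrays (8.4% of all probes), all higher, where 10 higher and 8 lower were called without it, and 0 in the other comparisons. The wild type call of mt-Atp6 was lost with it (adjusted p = 0.208). A block for slide or session was not run, since each array has its own slide and no session holds both kinds of array. The 2 arrays a comparison and the 19 member probes with Cy5 not well above background on some array limit what can be seen.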
